A study of Mus musculus with 8 samples.

Results

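The C/EBP genes, which encode the CCAAT/enhancer-binding proteins, were examined in the deposited list of regions enriched for BRG1 in Tβ4-primed, injured adult mouse hearts. The members were the 6 genes that carry the name, Cebpa, Cebpb, Cebpd, Cebpe, Cebpg and Cebpz, out of 37273 genes annotated on the autosomes, X and Y of the mouse build mm9, and each was found by its symbol. The animals were C57BL/6 mice that the sample labels describe as 10 to 12 weeks old, a range that differs from the one in the study's methods. They received Tβ4, an actin-binding peptide, at 12 mg per kg, or PBS, for 1 week before MI by permanent ligation of a coronary artery, again on days 0 and 2 after it, and hearts were taken on day 4. BRG1 ChIP libraries and input libraries were each made in 2 replicates per treatment, 8 libraries in all. The regions described here come from the Tβ4-primed hearts, while the PBS-primed hearts were not analysed here. Input entered only through the authors' calling of regions over it and was not analysed by itself. The list holds 524614 regions, which cover 25.8% of the bases of the autosomes, X and Y. Their median length is 600 bp, and 4 exceed 100 kb. They have a start and an end but no height, the list does not separate the duplicates, and its sequencing depth is unknown. Each value below is therefore a single value without a replicate error, and no difference between treatments or between genes was tested.

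C/EBP proteins are transcription factors of the basic leucine zipper (bZIP) class that bind DNA as homodimers or heterodimers. C/EBPα drives granulocyte, liver and fat cell differentiation and restrains proliferation, C/EBPβ and C/EBPδ are induced by inflammatory cytokines, and C/EBPε acts in the last steps of granulocyte maturation. C/EBPγ lacks a transactivation domain and serves as a dimer partner. Cebpz encodes a CCAAT-binding protein without a leucine zipper and shares the name but not the fold. In the heart, C/EBP factors act in the epicardium, the outer cell layer, on genes that are switched on in development and again after injury, Wt1 among them. BRG1 is an ATPase of the SWI/SNF complexes, which move nucleosomes and open chromatin.

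Within 5 kb of the TSS, 6 of 6 members had at least 1 region, as did 90.5% of the 22367 protein-coding genes. The gene body held a region in 3 of 6 members, Cebpa, Cebpg and Cebpz, against 84.1% of protein-coding genes. The annotated TSS itself lay inside a region in 2 of 6 members, Cebpg and Cebpz, against 24.2%. Cebpa, Cebpb, Cebpd and Cebpe are from 1181 to 2634 bp long, and 45.0% of protein-coding genes of up to 3 kb held a region in the body. With a narrower window of 2 kb around the TSS, regions were counted at 3 of 6 members, Cebpb, Cebpg and Cebpz, against 70.8% of protein-coding genes.

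The share of bases inside regions, called the covered share below, varied widely among the members. Within 5 kb of the TSS it ran from 8.40% at Cebpb through 16.4% at Cebpe, 22.6% at Cebpd, 36.1% at Cebpa and 48.2% at Cebpz to 86.5% at Cebpg. The median of the 6 genes was 29.3%, and that of all protein-coding genes was 22.2%, with quartiles of 7.85% and 40.5%. The member median was 22.6% without Cebpz or without Cebpg and 36.1% with Ddit3 added. Within 2 kb the order of the medians was the reverse, 5.19% for the members and 15.3% for protein-coding genes. In the gene body the members had a median of 2.91% and protein-coding genes one of 23.7%, or 0% among those of up to 3 kb. In the body, too, the member median rests on single genes, as it was 0% without Cebpz or without Cebpg and 5.82% with Ddit3 added. The 50 kb flanks on both sides of the gene gave a median of 28.9% for the members, next to 25.2% for protein-coding genes. The members' shares ran from 0% to 87.0% in the gene body and from 17.3% to 37.2% in the flanks, the narrowest range of these windows.

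**Figure D1:**
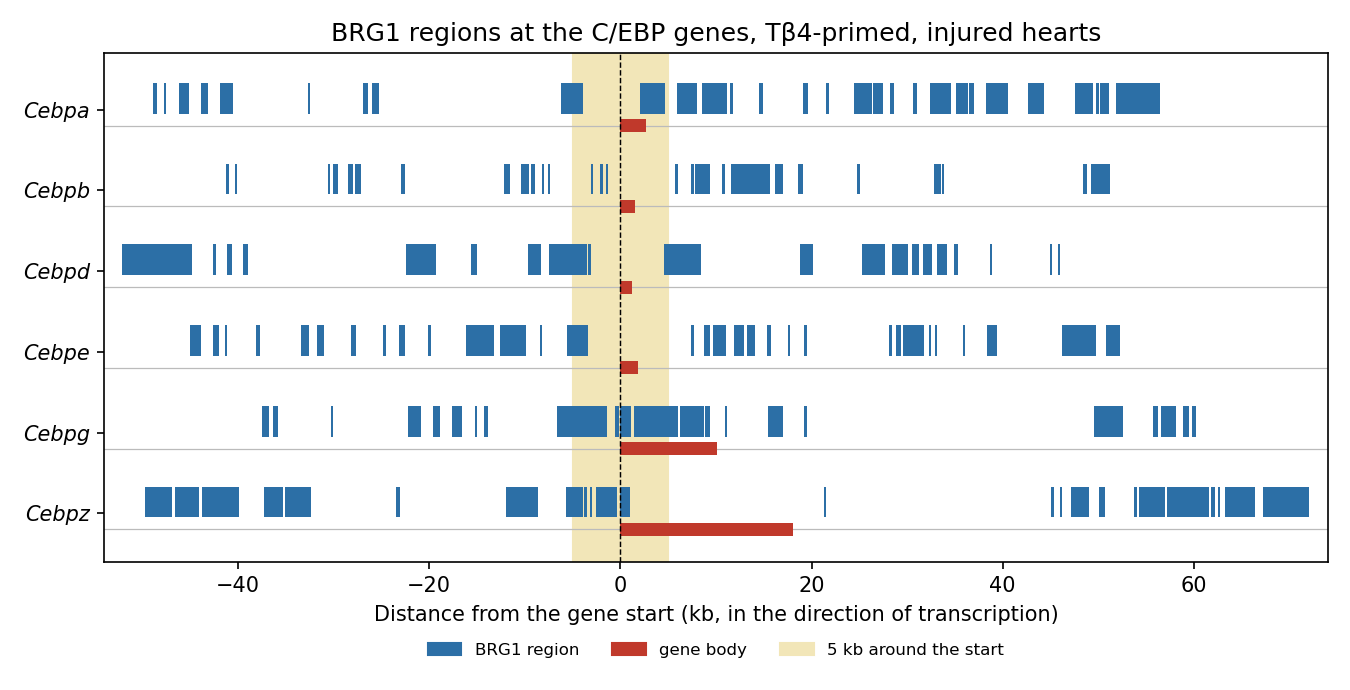
BRG1 regions (blue) around the 6 C/EBP genes, drawn by distance from the TSS in kb along the direction of transcription, with the gene body in red and the 5 kb on either side of the TSS shaded. Regions fill most of the shaded window at Cebpg (86.5%) and little of it at Cebpb (8.40%), and no region touches the gene bodies of Cebpb, Cebpd and Cebpe.

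**Figure D2:**
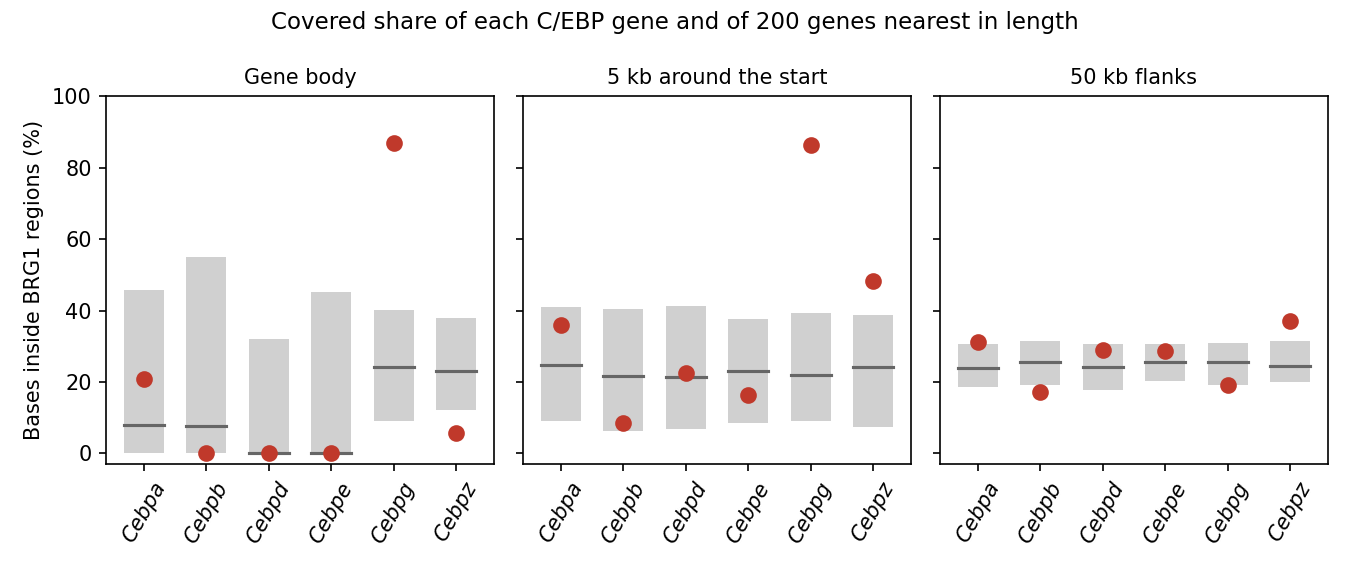
Percentage of bases inside BRG1 regions in the gene body, within 5 kb of the TSS and in the 50 kb flanks. Red points are the C/EBP genes, grey boxes span the quartiles of the 200 protein-coding genes nearest in length, and grey lines are their medians. Cebpg lies far above the box in the first 2 windows, at 87.0% and 86.5%.

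Cebpg, the partner without a transactivation domain, had the highest covered share of the members in the gene body and within 5 kb of the TSS. The gene (ENSMUSG00000056216.8) spans 10082 bp on the minus strand of chromosome 7, from 35831441 to 35841522. Of its body, 8773 bp or 87.0% lay in 4 regions, and the 200 protein-coding genes nearest in length had a median of 24.3%. This placed Cebpg at the 99th percentile for the gene body and at the percentile of 99.5 for the 5 kb around the TSS. The cover took in 93.0% of intronic bases and 406 of 450 coding bases. Measured as regions per kb instead of bases, the percentiles were 76.5 and 77.8, and 4 regions made up the cover in either window. Within 2 kb of the TSS the covered share of Cebpg, 66.3%, had a percentile of 85.5. In that narrower window Cebpz was higher, with 69.5% and a percentile of 91.5. The flanks of Cebpg had a share of 19.0% and a percentile of 24.5, which was 57 with flanks of 20 kb and 40 with flanks of 100 kb.

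The block at Cebpg began upstream of the TSS with a region of 5250 bp from -6617 to -1368 bp, the longest in the gene and its 50 kb flanks. It was followed by a region of 360 bp from -527 to -168 bp, one of 1110 bp from -17 to 1092 bp that held the TSS, and one of 4620 bp from 1453 to 6072 bp. A further 2520 bp and 540 bp were covered towards the 3′ end, up to 9402 bp. Most of the RefSeq promoter of Cebpg was covered, with 146 of the 250 bases before the RefSeq start inside the region of 360 bp. This promoter ends 64 bp before the annotated TSS, and the RefSeq start lay outside the regions. CCAAT, the pentamer that gave the family its name, was searched on both strands and occurred in 33.8% of the 32851 RefSeq promoters over the same 250 bases. It was present 2 times in the promoter of Cebpg, at -152 and -91 bp from the annotated TSS, and both copies lay in the uncovered bases between the neighbouring regions. The promoter is shown from 5′ to 3′ with these copies, which read as ATTGG on the strand of the gene, in capitals. The RefSeq sequence, from build GRCm38.p6, was found without a mismatch in mm9 on the minus strand at chr7:35841586-35841835.
Cebpg promoter: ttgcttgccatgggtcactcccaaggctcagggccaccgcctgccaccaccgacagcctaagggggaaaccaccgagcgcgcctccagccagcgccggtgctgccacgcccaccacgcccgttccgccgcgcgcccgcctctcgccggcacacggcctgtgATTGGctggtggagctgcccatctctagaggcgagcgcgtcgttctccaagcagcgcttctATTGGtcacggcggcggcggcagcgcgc

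Cebpa, the founding member of the family, lies on the same chromosome as Cebpg and is transcribed away from it. The gene (ENSMUSG00000034957.9) has a single exon of 2634 bp on the plus strand, from 35904312 to 35906945, and 62789 bp separate it from Cebpg. That stretch between the genes held 12 regions and had a covered share of 21.0%. The flanks of the neighbours overlap in part, so that 8 regions counted for both. At Cebpa, the region nearest to the TSS on the upstream side ran from -6252 to -3943 bp, and the one on the downstream side ran from 2088 to 4637 bp. The latter covered 546 bp at the 3′ end of the exon, none of it coding, while the 1077 coding bases and the TSS were free of regions. The percentiles among genes of like length were 57 for the gene body, 69.5 within 5 kb of the TSS and 77.5 in the flanks. Within 2 kb of the TSS, where Cebpa had no region, the percentile was 14.5, within 10 kb it was 84, and by regions per kb within 5 kb it was 43. In the flanks it was 58 with 20 kb and 88.5 with 100 kb on either side.

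The cover at Cebpa was lopsided. The 50 kb downstream of the gene had 20 regions and a covered share of 47.3%, while the 50 kb upstream had 9 regions and 15.2%. In bins of 5 kb, the downstream share peaked at 71.8% between 5 and 10 kb from the TSS and at 69.4% between 35 and 40 kb. The means over protein-coding genes were 26.4% and 25.8% there. Peaks of this size were not particular to Cebpa, since each other member had a higher bin, from 74.9% at Cebpb to 100% at Cebpd. An enhancer used in myeloid cells is known to lie downstream of Cebpa in the stretch between 35 and 40 kb. From 36 to 38 kb beyond the TSS 2 regions covered 44.4% of the bases. That share was no higher than the 47.3% of the whole 50 kb downstream. The promoter of Cebpa held no region. It contains TATAA, the core of a TATA box, 30 bases before the RefSeq start, on the strand of the gene, and 4.23% of RefSeq promoters hold these letters in the last 40 bases before the start. It is shown with that pentamer in capitals (mm9, plus strand, chr7:35904062-35904311).
Cebpa promoter: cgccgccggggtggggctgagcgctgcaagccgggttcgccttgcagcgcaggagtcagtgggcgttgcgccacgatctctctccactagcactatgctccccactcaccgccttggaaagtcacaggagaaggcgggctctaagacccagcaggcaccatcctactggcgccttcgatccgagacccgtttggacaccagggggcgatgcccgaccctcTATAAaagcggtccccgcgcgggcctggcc

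**Figure D3:**
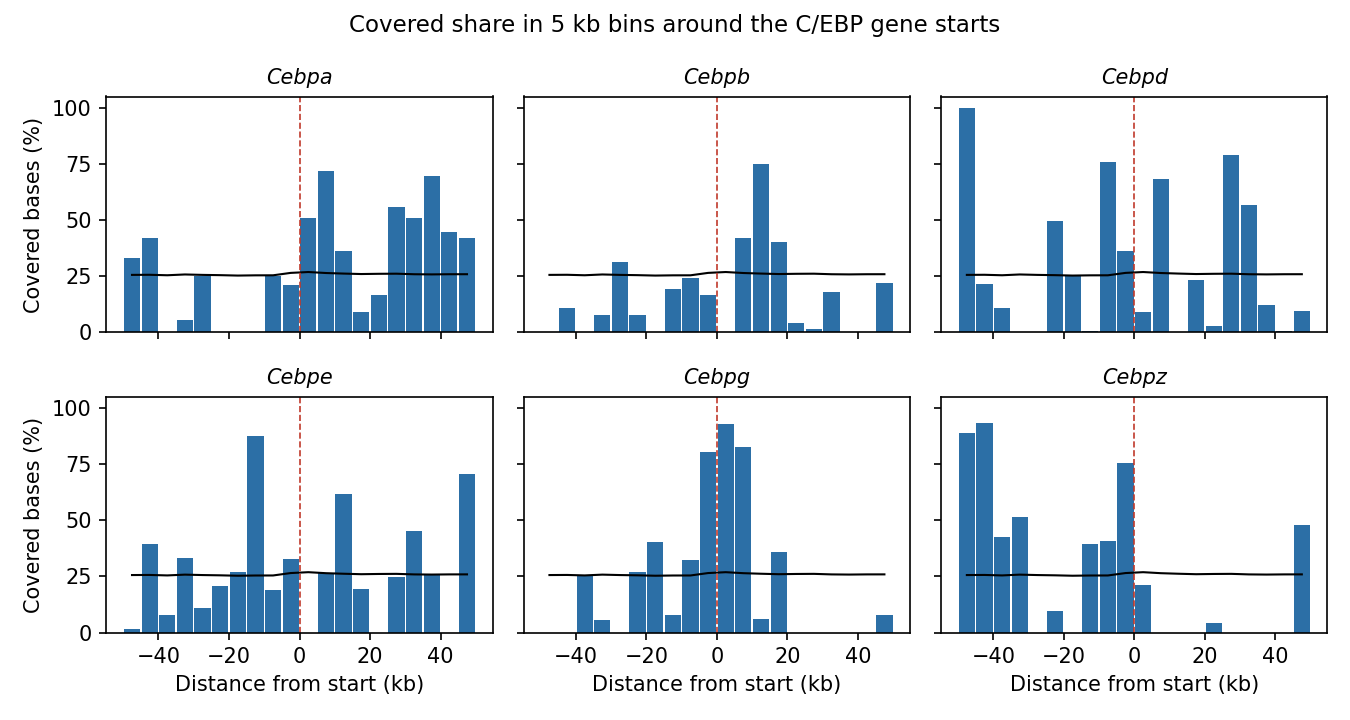
Percentage of bases inside BRG1 regions in bins of 5 kb by distance from the TSS in kb, for each C/EBP gene (blue bars) and as the mean over 22367 protein-coding genes (black line). Bars at Cebpa are mostly above the line downstream of the TSS, and those at Cebpg rise to 92.8% in the first 5 kb of the gene.

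Cebpb, which encodes a member induced by inflammatory cytokines, had the lowest covered share of the members within 5 kb of the TSS. Within 2 kb the order changed, since Cebpb had 10.4% there and Cebpa, Cebpd and Cebpe had 0%. The gene (ENSMUSG00000056501.3) is a single exon of 1504 bp on the plus strand of chromosome 2, from 167514415 to 167515918. No region touched it, and the nearest ones ended 1256 bp upstream and began 5705 bp downstream of the TSS. The stretch without a region was 6960 bp long, which is also the median of such stretches over the 16946 protein-coding genes whose TSS was not covered. Of the 200 genes nearest in length, 52.0% had a region in their body. The share of 8.40% within 5 kb of the TSS had a percentile of 30.2 and the share of 17.3% in the flanks one of 15.5. The 3 regions near the TSS were all short. The count of regions per kb gave a percentile of 63.8, and the shares in windows of 2 and 10 kb gave 42 and 47.5. In the flanks, 20 kb on either side gave a percentile of 62 in place of 15.5 and regions per kb one of 73, whereas flanks of 100 kb gave 11 and regions of at least 600 bp alone gave 6.

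These 3 regions lie upstream, in introns of Tmem189, which runs on the other strand and overlaps the first 908 bp of Cebpb. They are given whole because they are the regions closest to Cebpb, on the plus strand of mm9 and in lower case, as neither TTGCGCAA nor TTGCNNAA, the palindromic and the looser form of the C/EBP recognition sequence, occurred in them on either strand. The first lies at chr2:167511300-167511569, from -3115 to -2846 bp, with a GC content of 53.7%, the second at chr2:167512260-167512559, from -2155 to -1856 bp, with 51.7%, and the last at chr2:167512890-167513159, from -1525 to -1256 bp, with 58.9%.
Cebpb first region: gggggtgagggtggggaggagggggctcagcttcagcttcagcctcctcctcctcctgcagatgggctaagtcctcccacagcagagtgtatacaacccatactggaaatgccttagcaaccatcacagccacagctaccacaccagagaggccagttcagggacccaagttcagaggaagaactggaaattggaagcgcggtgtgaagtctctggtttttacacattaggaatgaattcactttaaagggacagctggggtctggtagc
Cebpb second region: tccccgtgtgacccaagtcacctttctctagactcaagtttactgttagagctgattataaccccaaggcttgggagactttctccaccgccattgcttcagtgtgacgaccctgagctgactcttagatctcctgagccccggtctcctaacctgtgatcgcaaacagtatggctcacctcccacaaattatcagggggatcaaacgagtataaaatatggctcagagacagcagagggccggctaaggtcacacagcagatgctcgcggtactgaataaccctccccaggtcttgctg
Cebpb last region: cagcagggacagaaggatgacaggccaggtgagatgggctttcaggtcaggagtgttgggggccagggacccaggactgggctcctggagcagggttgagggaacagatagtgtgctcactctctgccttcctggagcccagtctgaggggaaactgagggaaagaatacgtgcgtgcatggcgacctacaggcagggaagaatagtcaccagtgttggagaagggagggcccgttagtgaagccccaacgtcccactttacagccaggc

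The promoter of Cebpb, in the uncovered stretch and likewise intronic to Tmem189, differs from these regions in base composition. Its GC content was 81.6%, at the percentile of 99.3 among RefSeq promoters, and it held 41 CpG dinucleotides, whereas the median promoter had 52.4% and 6. Neither CCAAT nor TATAA was found in its 250 bases (mm9, plus strand, chr2:167514165-167514414).
Cebpb promoter: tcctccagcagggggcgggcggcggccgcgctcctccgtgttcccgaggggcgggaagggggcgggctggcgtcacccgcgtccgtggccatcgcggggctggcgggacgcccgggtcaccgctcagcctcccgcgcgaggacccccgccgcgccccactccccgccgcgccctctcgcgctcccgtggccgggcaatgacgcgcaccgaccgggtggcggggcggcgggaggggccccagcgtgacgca

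Longer regions lay downstream of Cebpb. The largest, of 4080 bp, ran from 11555 to 15634 bp beyond the TSS inside A530013C23Rik, and the share in the bin from 10 to 15 kb was 74.9%. Over the gene and its flanks, 13 of 27 regions at Cebpb were 300 bp or shorter. In the list, so were 145498 of the 524610 regions of up to 100 kb. The median length of the 27 regions was 360 bp, the lowest of the 6 genes, against 600 bp over the whole list. By the covered shares of gene body, TSS window and flanks together, the protein-coding genes most like Cebpb among the 200 nearest in length were Gm13278, Tssk1 and Arxes1, at Euclidean distances of 0.949, 1.97 and 2.64 percentage points. None of the 3 had a region in its body, and their shares near the TSS were 8.10%, 8.40% and 8.97%. This likeness follows from the choice, which used the same shares.

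Cebpd, the other cytokine-induced member, and Cebpe, the granulocyte member, were also free of regions over the gene. Cebpd (ENSMUSG00000071637.4), on the plus strand of chromosome 16 from 15887379 to 15888559, is 1181 bp long and is recorded as a pseudogene in the annotation used here, so it was ranked among protein-coding genes but is not counted in them. Long regions stood on both sides of it, one of 3960 bp from -7449 to -3490 bp and one of 3870 bp from 4551 to 8420 bp, the latter reaching an exon of 2310008H04Rik. Between them, a region of 300 bp lay at -3369 to -3070 bp. The stretch of 7620 bp over the Cebpd TSS held no region. The percentile of Cebpd was 51.5 within 5 kb of the TSS, 15 within 2 kb, where it had no region, and 87.5 within 10 kb, where the long regions enter the window.

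Cebpe (ENSMUSG00000052435.6) occupies 1812 bp of chromosome 14 on the minus strand, from 55329200 to 55331011, with 2 exons. A single region, of 2220 bp from -5578 to -3359 bp, reached the window of 5 kb, and the next one downstream began at 7352 bp. The resulting stretch of 10710 bp without a region was the longest over the TSS of a member, with a percentile of 68.2 among protein-coding genes without a covered TSS. The share of 16.4% near the TSS had a percentile of 41.5 and the share of 28.6% in the flanks one of 66. The former was 17.2 within 2 kb and 19 by regions per kb, and the latter 77 with flanks of 20 kb, 34 with flanks of 100 kb and 87.8 by regions per kb. Its flanks held 31 regions, the most of the 6 genes, and 48.0% of the genes of like length had a region in their body.

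Cebpz, which has a role in ribosome assembly rather than in dimerization with the C/EBP proteins, showed cover that stopped shortly after the TSS. The gene (ENSMUSG00000024081.8) spans 18065 bp on the minus strand of chromosome 17, from 79318346 to 79336410, with 16 exons. Its TSS lay in a region of 1110 bp from -59 to 1050 bp, and the next region downstream began at 21331 bp, beyond the end of the gene. The body was therefore covered over 5.82% of its length, a percentile of 12.5, while the 5 kb around the TSS reached 48.2% and a percentile of 84.2. The percentile for the body was 21 with regions of at least 600 bp alone and 7 by regions per kb. It was 18 among 50 genes of like GC content out of the 1000 closest in length. Around the TSS the percentile was 91.5 within 2 kb and 69.5 within 10 kb. The gene 2410091C18Rik starts on the opposite strand with 64 bp between the genes, and 4 further regions within 5 kb of the Cebpz TSS lay inside that neighbour. Cover around this shared promoter cannot be told apart between the genes. The upstream 50 kb had a covered share of 44.1% and the downstream 50 kb one of 30.2%, and the percentile of 90 for both flanks was 38.5 with flanks of 20 kb, 94 with flanks of 100 kb and 56.5 by regions per kb.

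Ddit3, which encodes the stress-induced dimer partner CHOP, belongs to the C/EBP class by its protein but not by its gene name. Regions covered 64.6% of its body and its TSS, with a percentile of 87 for the body, and 41.4% of the bases within 5 kb of the TSS. It resembled Cebpg in having both the TSS and most of the gene inside regions. The nearest protein-coding genes to the members differed widely as well. The TSS window of Ptpn1, the next protein-coding gene downstream of Cebpb, had a covered share of 59.5%. That of Pepd, whose 3′ end faces Cebpg and whose TSS lies 144124 bp from that of Cebpg, had one of 55.8%. At Slc7a10, the next protein-coding gene downstream of Cebpa, the share was 47.4%, and that of Mzt2, upstream of Cebpd, was 31.5%. The window of 1700123O20Rik, downstream of Cebpe, reached 22.3%, whereas that of Slc7a8, upstream of it, held no region. Shares at Tmem189, 2310008H04Rik and 1110001A16Rik, which adjoin or overlap Cebpb, Cebpd and Cebpz, were 10.4%, 8.46% and 2.10%. At 2410091C18Rik, whose window nearly coincides with that of Cebpz, it was 48.9%.

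The members' regions were searched for the sequence that C/EBP dimers recognise. The 6 genes with their 50 kb flanks held 145 different regions, with a median length of 600 bp. TTGCGCAA was found in 0 of them, and in 0.112% of the 524610 regions of up to 100 kb. TTGCNNAA, searched on both strands and including TTGCGCAA, was present in 49 of the 145 regions or 33.8%, next to 35.5% of all regions, and at 0.404 sites per kb, next to 0.504. By length, it occurred in 5 of 41 members' regions of 300 bp or less, or 12.2%, against 11.9% of all such regions, in 5 of 32 over 300 and up to 600 bp, or 15.6%, against 19.2%, and in 39 of 72 regions over 600 bp, or 54.2%, against 56.2%. Within 5 kb of the TSS, 6 of 7 sites at Cebpg, 4 of 7 at Cebpa, 3 of 4 at Cebpz and 1 of 2 at Cebpe lay in a region, and 0 of 5 at Cebpb and 0 of 3 at Cebpd did. These counts stand beside covered shares of 86.5%, 36.1%, 48.2%, 16.4%, 8.40% and 22.6% of the same windows. Within 50 kb of the TSS, 15 of 40 sites at Cebpd, 14 of 30 at Cebpe, 18 of 44 at Cebpz, 8 of 29 at Cebpa, 8 of 31 at Cebpg and 4 of 27 at Cebpb lay in a region. The covered shares of the 50 kb flanks were 29.1%, 28.6%, 37.2%, 31.3%, 19.0% and 17.3% in the same order. These flanks leave out the gene body, which the site counts include, so the windows are not the same.

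For the members with such a site within 5 kb of the TSS, in a region and away from exons, the 120 bases around the one nearest to the TSS are shown on the strand of the gene, with the matching bases in capitals. At Cebpa this was at chr7:35907696-35907815, plus strand, between the gene and its next neighbour, and at Cebpe at chr14:55334929-55335048, minus strand, upstream of the gene. At Cebpg it was at chr7:35840418-35840537, minus strand, in an intron, where 108 of the 120 bases were covered. At Cebpz it was at chr17:79337638-79337757, minus strand, in an intron of 2410091C18Rik, where overlapping matches on both strands make up the capitals. These are matches of letters and not known binding sites.
Cebpa site: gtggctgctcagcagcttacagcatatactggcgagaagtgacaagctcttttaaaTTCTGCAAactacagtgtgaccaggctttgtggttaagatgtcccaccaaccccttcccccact
Cebpe site: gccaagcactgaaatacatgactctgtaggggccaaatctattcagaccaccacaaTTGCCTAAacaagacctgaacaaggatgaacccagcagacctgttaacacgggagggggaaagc
Cebpg site: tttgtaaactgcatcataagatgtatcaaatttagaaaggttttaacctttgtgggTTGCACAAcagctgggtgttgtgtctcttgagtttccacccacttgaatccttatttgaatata
Cebpz site: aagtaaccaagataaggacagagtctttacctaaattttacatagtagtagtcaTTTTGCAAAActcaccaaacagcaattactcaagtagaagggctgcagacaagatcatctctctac

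Several members are rich in G and C. The gene bodies of Cebpb, Cebpd and Cebpa had a GC content of 67.2%, 62.9% and 62.6%, each above the 99th percentile of protein-coding genes, and that of Cebpe was 58.3%, while Cebpg and Cebpz had 43.4% and 41.3%. The ratio of observed to expected CpG in the body was 1.22 at Cebpb, 0.984 at Cebpd and 0.728 at Cebpa, and lower at Cebpe, Cebpg and Cebpz, with 0.370, 0.365 and 0.287. Near the TSS this contrast was smaller for Cebpg. The 1001 bp centred on the TSS had a GC content of 69.4% at Cebpg, 75.8% at Cebpb and 68.8% at Cebpa. The same stretch had 67.9% at Cebpd, 58.3% at Cebpe and 56.2% at Cebpz. The members with GC-rich bodies were those without a covered TSS, and 24.2% of protein-coding genes had a covered one. GC content at the TSS did not split the members this way, since Cebpg was above Cebpa, Cebpd and Cebpe. Across protein-coding genes, the median covered share of the body was 26.3% in the fifth with the lowest GC content and 17.2% in the fifth with the highest, whereas within 5 kb of the TSS the medians were 22.9% and 21.6%. Whether base composition affected the recovery of regions at these genes was not tested.

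**Figure D4:**
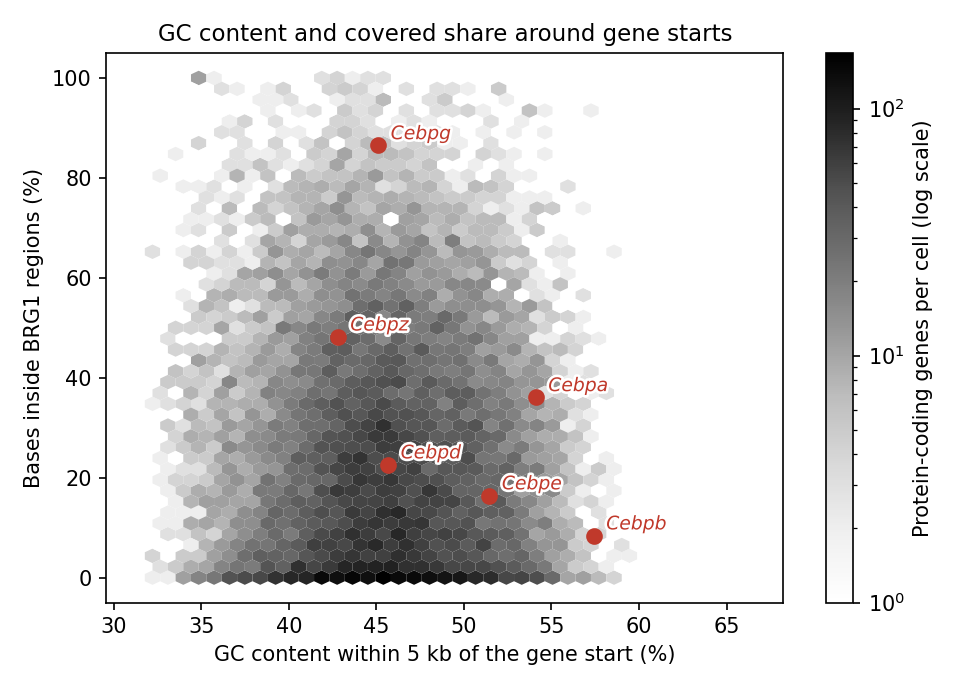
GC content within 5 kb of the TSS (%) against the percentage of those bases inside BRG1 regions. Grey cells count protein-coding genes on a log scale and red points are the C/EBP genes. Cebpb has the highest GC content of the members (57.4%) with the lowest covered share (8.40%), and Cebpg combines 45.1% GC with 86.5%.

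Genes that act with or under the C/EBP proteins were described in the same way. The 21 other bZIP factors chosen for this list had a median covered share of 27.2% within 5 kb of the TSS. A region lay in that window at 21 of 21, where 90.5% of protein-coding genes had one. The share was highest at the AP-1 subunit gene Fosb, with 67.2%, and lowest at Atf3, with 7.50%. The TSS was covered at 6 of 21, against 24.2% of protein-coding genes. Of 11 genes for regulators of C/EBP proteins, which include kinases, Tribbles proteins and the IL-6 receptor pathway, 10 had a region near the TSS and 3 over it, next to the same 90.5% and 24.2%, with a median share of 33.1%. Rps6ka1, the gene of a kinase that phosphorylates C/EBPβ, had 62.4%, and Mapk3, which encodes the kinase ERK1, had 0%. Both lists included genes with a lower share than Cebpb and genes with a higher share than Cebpz.

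Among genes that C/EBP proteins are known to activate, the 10 myeloid and granule genes had a median share of 25.5% near the TSS, with a region at 9 of 10 and over the TSS at 3 of 10, next to 90.5% and 24.2% of protein-coding genes. Itgam, which encodes the integrin CD11b, had 69.0%, and the lysozyme gene Lyz2 had 0%. The 8 acute phase and inflammatory genes had a median of 29.6%, with a region near the TSS at 8 of 8 and over it at 2 of 8, counts that stand beside the same background. The highest share was 66.8% at the haptoglobin gene Hp and the lowest 3.84% at Saa3. Near the TSS, the 10 adipose and liver genes had the lowest median of these lists, 13.6%. In the 50 kb flanks their median of 31.2% was the highest of these lists, and in the gene body it was 20.4%. A region lay near the TSS at 7 of 10 and over it at 1 of 10, again next to 90.5% and 24.2%. That 1 gene was Tat, for tyrosine aminotransferase, which also had the highest share, 37.1%, while Alb, Plin1 and G6pc had 0%. No listed gene reached the 86.5% of Cebpg.

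**Figure D5:**
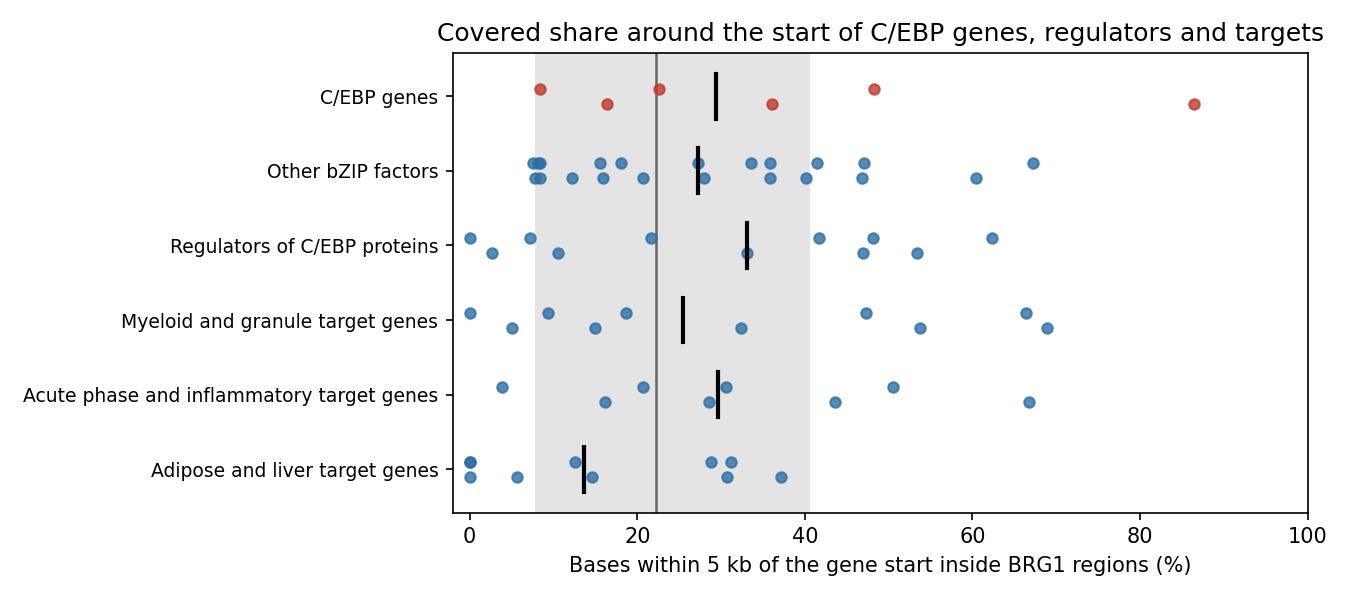
Percentage of bases within 5 kb of the TSS inside BRG1 regions for the C/EBP genes (red) and for the listed partners, regulators and target genes (blue), 1 point per gene. Black bars are list medians, the grey line and band are the median (22.2%) and quartiles (7.85% and 40.5%) of protein-coding genes. The medians lie between 13.6% and 33.1%.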

How the data were processed

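The series comprises BRG1 ChIP and input libraries, 2 of each per treatment. Per the labels and the study's methods, the authors mapped reads to mm9 with Bowtie 1.0.0 and called regions over input with MACS2 2.0.10, for which the methods name bdgcomp. The deposited list has the form of an output for a comparison of conditions, labelled with a cutoff, so the exact call is unsure, and how duplicates were combined is not given in the sources used here. The deposited list gives start and end in bp, and no column held values of single samples. Groups were taken from the sample labels.

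Genes came from the GENCODE annotation of mm9. Regions counted with at least 1 bp of overlap. Each member's covered share was ranked among the 200 protein-coding genes nearest in length, ties counted as 0.5, as a description. Motifs and GC content were read from mm9, and promoters from RefSeq (GRCm38.p6), which matched 3 of 6 members. Python 3.11.15, numpy 2.4.6, pandas 2.3.3, scipy 1.17.1 and matplotlib 3.10.9 were used. Counts and covered bases were tested on simulated regions against bedtools 2.31.1.

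The members and lists were chosen with earlier results of these data known. An item on the list of regulators is not reported here and was left out of that list's count and median. Named genes were the members, Ddit3, their nearest protein-coding genes on either side, the extremes of each list within 5 kb of the TSS and the 3 genes most like Cebpb. A530013C23Rik was named after its values were seen. The search for CCAAT and TATAA and the stretch from 36 to 38 kb downstream of Cebpa were added after the list had been examined. The genome used here carries no repeat masking, so repeats were not analysed here. Alternatives are given in the closing section.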

Additional observations from a re-analysis of the deposited data

How the results depend on the processing

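Windows, comparison genes, the list of regions, the measure and the set of members (without Cebpz, with Ddit3 and, chosen after seeing the data, without Cebpg) were changed one at a time. Of 77 values for the counts, the medians and the percentiles of Cebpb and Cebpg, 63 stayed within 1.5 times the count or within a 95% binomial interval. That interval was taken over 200 genes for a percentile and over units of 210 bp for a median. Neighbouring units are not independent, since single regions span several of them, so for a median it is a rough guide and no test. Some alternatives, such as leaving out the 4 regions over 100 kb, could change little. For the gene body the interval rests on 10 units and is wide: it holds the medians of 0% without Cebpz or without Cebpg and 5.82% with Ddit3, in place of 2.91%. For the 5 kb around the TSS it holds 22.6% without Cebpz or without Cebpg, in place of 29.3%, although protein-coding genes had 22.2%. With 2 kb around the TSS, 3 members had a region, the median covered share was 5.19% (15.3% for protein-coding genes), and the percentiles were 42 for Cebpb and 85.5 for Cebpg. With 10 kb, Cebpb had a percentile of 47.5. With regions of at least 600 bp alone, Cebpb had percentiles of 31.5 for the body and 16.2 around the TSS. Among 100 genes nearest in length, Cebpb had a percentile of 38 around the TSS and Cebpg 100 in both windows. By regions per kb, the percentiles were 63.8 around the TSS of Cebpb, and 76.5 for the body and 77.8 around the TSS of Cebpg. When 50 of the 1000 genes closest in length were taken for their like GC content, an alternative chosen after seeing the data, the body of Cebpg had a percentile of 100. That alternative changed the number of genes compared as well as their GC content. The cause of these shifts was not tested. The percentiles of the other members and of the flanks moved beyond their interval in 32 of 140 cases, mostly with other window sizes or with regions per kb. Within 2 kb of the TSS, Cebpa, Cebpd and Cebpe had percentiles of 14.5, 15 and 17.2. Ranking by score was not run, since the list has none, and neither was leaving out a replicate, since the list does not separate the duplicates. No paired analysis was possible because the list carries no value for single samples. With 1 list of unknown depth, an uncovered base cannot be told from one that fell below the authors' threshold.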
